A study of Mus musculus with 4 samples.

Results

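Neuroblasts are cells of the neural lineage that have begun to turn from dividing progenitors into neurons. The neuroblast cells described here were selected on expression, by a rule on counts of unique molecular identifiers (UMIs, each standing for 1 captured transcript). A cell was a neuroblast cell where at least 4 of Gadd45g, Dll1, Dll3, Neurog1, Neurog2, Neurod1, Neurod4, Nhlh1 and Hes6 had a UMI, at most 3 of the 6 neuron genes Tubb3, Stmn2, Dcx, Elavl3, Ina and Gap43 had a UMI, and Epcam (epithelium) and Col3a1 (mesenchyme) had none. The rule chose 1182 cells, or 4.87%, of the 24259 that passed a floor of 500 genes and a ceiling of 10% mitochondrial UMIs. The levels of these 9 genes, of the 6 neuron genes and of Epcam and Col3a1 are therefore given as a description. These genes were left out of the tests against other cells. The 9 and the 6 were among all the genes tested between genotypes.

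Heads of mouse embryos at stage E10.5, in samples titled embryonic brain, were dissociated with enzymes, sorted to remove dead cells and captured in droplets. There were 2 wild-type (WT) libraries and 2 libraries labelled Apcdd1+/-, the heterozygous state of Apcdd1, which encodes a membrane protein known as a Wnt inhibitor. The labels give no further treatment, no strain background of the controls and no number of embryos in a library, so the replicates may be technical, and p-values speak only of the spread among these 4 libraries. The sources used here do not give how the Apcdd1 allele was altered.

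The WT libraries held 6258 and 2956 kept cells with medians of 11506 and 17133.5 UMIs, and the libraries labelled Apcdd1+/- held 9501 and 5544 with medians of 9118 and 8934.5. Between 6 and 25 bead barcodes were shared by a pair of libraries, at most 0.382% of the smaller set; for Apcdd1+/- replicate 1 this covers only the 3994 of 9735 deposited cells with a listed barcode. Apcdd1 did not separate the labels: in neuroblast cells it had 140 and 90.7 CPM (a gene's UMIs per 1000000 UMIs of the same cells) in WT and 158 and 82.0 in the libraries labelled Apcdd1+/-, a log2 difference of 0.09 (SE 0.24). The directions below are those of the labels. The Y-linked gene Ddx3y had 34.6 and 2.98 CPM in WT replicates 1 and 2 and 4.18 and 34.9 in Apcdd1+/- replicates 1 and 2, so each genotype held 1 library with a high and 1 with a low level.

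In the embryonic neural tube, proneural transcription factors such as Neurog1 and Neurog2 start neuron formation and switch on the Notch ligand Dll1. Dll1 on a committed cell activates Notch in its neighbours, which then express Hes1 and Hes5 and stay progenitors. The committed cell itself expresses Hes6, which opposes Hes1, and genes that slow or stop division, among them Gadd45g, Btg2 and the cyclin-dependent kinase inhibitor Cdkn1c, before it turns on the tubulin and cytoskeletal genes of a neuron.

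The genes that give these cells their name lie on several chromosomes of the mouse genome (GRCm38, GENCODE vM21), and all are protein-coding. Gadd45g is at chr13:51846678-51848468 on the plus strand, and Dll1 is at chr17:15367354-15376872 on the minus strand. On the minus strand are also Dll3 at chr7:28293553-28302238, Neurog1 at chr13:56250478-56252163, Hes6 at chr1:91411483-91414038 and Btg2 at chr1:134075170-134079120.

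Proneural factors are basic helix-loop-helix proteins, which bind short DNA words called E-boxes, so the 250 bases before each gene's start in RefSeq (GRCm38.p6) were searched on both strands for CAGCTG, which is its own reverse complement, and for CAGATG, which reads CATCTG on the other strand. The first of these lay in 4 of the 9 rule genes, Gadd45g, Dll1, Dll3 and Hes6, and in 4271 of 32851 windows in all (13.0%). CAGATG lay in 1 of the 9, Nhlh1, and in 4745 windows in all (14.4%). A gene with several annotated starts has several windows, and it was counted where any of them held the word. The counts of genes and the shares of single windows are therefore unlike measures, and no excess was tested. Of the 12 genes with the largest higher difference from progenitors, picked as described below, 10 had a window. CAGATG lay in 4 of them, Nhlh2, Cck, Ppp1r14a and Srrm4, and CAGCTG in 1, Rgs8. A match is only a match of letters, and no binding was measured. The stretches around the word are shown for 2 rule genes and for 2 genes outside the rule whose levels are described below, each 5′ to 3′ on the gene's own strand, upstream of the gene and overlapping no annotated gene, with the E-box in capitals. They are at chr13:51846575-51846670 (plus) for Gadd45g, chr1:91414159-91414254 (minus) for Hes6, chr3:102009973-102010068 (plus) for Nhlh2 and chr5:116591925-116592020 (minus) for Srrm4, and the words lie 55, 171, 127 and 158 bases before the start.
Gadd45g: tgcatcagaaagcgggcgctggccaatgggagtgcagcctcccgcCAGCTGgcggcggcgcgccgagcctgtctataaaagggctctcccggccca
Hes6: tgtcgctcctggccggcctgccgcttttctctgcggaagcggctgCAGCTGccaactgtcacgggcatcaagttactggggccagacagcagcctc
Nhlh2: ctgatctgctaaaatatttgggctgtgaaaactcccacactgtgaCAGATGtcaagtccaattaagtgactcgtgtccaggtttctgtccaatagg
Srrm4: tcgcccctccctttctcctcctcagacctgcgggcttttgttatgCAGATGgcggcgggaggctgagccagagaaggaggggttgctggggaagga

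The rule was met narrowly by many cells. Of the 1182, 532 (45.0%) had exactly 4 of the 9 genes, 306 had 5, 188 had 6, 111 had 7, 35 had 8 and 10 had all 9. Of the 6 neuron genes, 136 cells had none, 280 had 1, 423 had 2 and 343 had 3. Just inside the limit, the 532 cells with 4 genes had 988 ± 119 CPM of Gadd45g (SD, n = 4 libraries), and just outside it the 821 cells with 3 genes had 327 ± 133. Across the same limit, Btg2 had 260 ± 34.8 against 133 ± 21.0 CPM, and Nhlh2 36.4 ± 10.9 against 9.44 ± 5.11. Across the neuron limit, the 343 cells with 3 neuron genes had 1275 ± 165 CPM of Gadd45g, and the 216 cells with 4 had 965 ± 134. Nhlh2 had 165 ± 58.2 CPM inside that limit and 263 ± 70.8 outside it.

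Of the proneural genes, Neurog1 had 186 and 188 CPM in WT replicates 1 and 2 and 208 and 199 in Apcdd1+/- replicates 1 and 2. Neurog2 had 118 and 114 CPM in WT and 114 and 138 in Apcdd1+/-. Neurod1, which acts downstream of the neurogenins, had 60.1 and 71.1 CPM in WT and 65.8 and 64.6 in Apcdd1+/-. The 4 libraries were thus close to each other for all 3. Neurod4 and Nhlh1, which come on as neurons form, had means of 18.8 ± 3.16 and 32.3 ± 11.8 CPM, with a UMI in 11.8% and 19.2% of the cells.

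The Notch ligand Dll1 had 230 and 200 CPM in WT and 257 and 248 in the libraries labelled Apcdd1+/-. Dll3, a relative of Dll1 that acts inside the cell on Notch, had 247 and 182 CPM in WT and 234 and 263 in Apcdd1+/-. Hes6 had 567 and 395 CPM in WT and 538 and 559 in Apcdd1+/-. Gadd45g, a growth arrest gene, had 1214 and 931 CPM in WT and 1111 and 1185 in Apcdd1+/-. WT replicate 2 was the lowest library for each of these 4 genes and also had the highest median of UMIs per cell.

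To compare shares of cells with a UMI at equal depth, cells were thinned to 3000 UMIs, which left out 23 neuroblast cells as shallower. Gadd45g then had a UMI in 80.6% of neuroblast cells (95.3% before thinning), Hes6 in 72.8% (95.4%), Btg2 in 59.3% (85.9%) and Dll1 in 50.1% (81.2%). In the neuron cells defined below, the thinned shares of these genes were 43.3%, 43.7%, 30.8% and 12.6%. In the progenitor cells defined below, which were allowed at most 1 of the 9 rule genes, they were 2.77%, 9.01%, 12.4% and 1.83%. Erythroid cells, taken as cells with at least 20% globin counts, lie outside the neural lineage. Their shares after thinning were 21.0%, 1.61% and 5.65% of 124 cells for Gadd45g, Hes6 and Btg2. Whether the erythroid cells made these transcripts themselves was not tested. Dll1 had a UMI in 0 of these 124 cells, which allows a share of up to 2.42% (3 counts of 124). Before thinning, the erythroid shares were 56.8%, 18.9%, 43.2% and 0.758% of 132 cells. Median depth before thinning was 19612 UMIs in erythroid cells and 9083.5 in neuroblast cells.

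**Figure D1:**
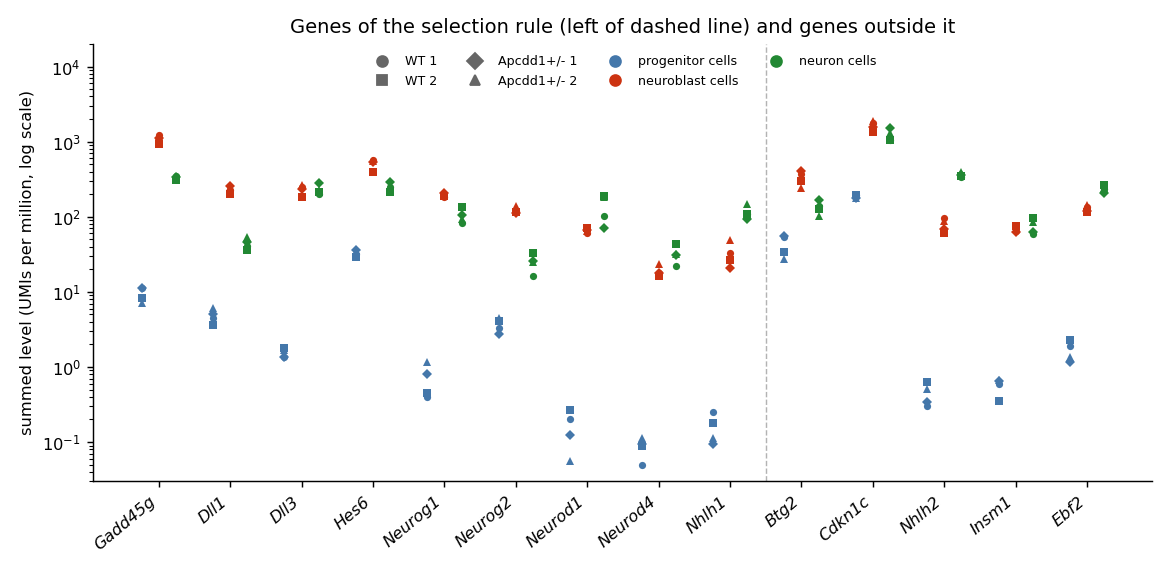
Level in CPM on a log scale of the rule genes (left of the dashed line) and of 5 genes outside the rule (right of it), 1 point per library, in progenitor, neuroblast and neuron cells. Btg2 in neuroblast cells (245 to 403 CPM) lies above every progenitor library (27.6 to 54.7) and every neuron library (103 to 169).

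Neuroblast cells were compared with the cells on either side of them in the same libraries. Progenitor cells, 8036 in number, had a UMI of Sox2, at most 1 of the 9 neuroblast genes and at most 1 of the 6 neuron genes, and no UMI of Epcam, Col3a1, Col1a2 or Sox10. Neuron cells, 1550 in number, had at least 4 of the 6 neuron genes and no Epcam or Col3a1, and 815 of them (52.6%) also had at least 4 of the 9 neuroblast genes. The counts were summed per library and cell set, and genes outside the rules were tested by edgeR's quasi-likelihood test with the library as a block and Benjamini-Hochberg adjustment. These genes were read in the same cells that the rule genes sorted, so their differences describe cells sorted in this way and are not independent evidence that such a cell type exists.

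The name of these cells was checked on Btg2, the 1 naming marker outside the rule. Btg2 is also on the list of stress and immediate early genes used further below. Btg2, an antiproliferative gene known to mark progenitors that are about to make neurons, had 375, 297, 403 and 245 CPM in the neuroblast cells of WT 1, WT 2, Apcdd1+/- 1 and Apcdd1+/- 2. It had 54.2, 33.9, 54.7 and 27.6 CPM in the progenitor cells and 141, 126, 169 and 103 in the neuron cells. All 4 libraries had the highest level in the neuroblast cells, by 2.99 on the log2 scale against progenitors (SE 0.05) and by 1.36 against neurons (SE 0.06).

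The other part of the name, leaving the cell cycle, was read only from transcripts of S phase and G2/M. Low counts of these cannot tell a cell in G1, before S phase, from one that has left the cycle. UMIs of 95 genes of S phase and of G2/M (43 and 52 genes) were summed in each cell after thinning. The median was 46 of 3000 UMIs in neuroblast cells, 57 in progenitor cells and 12 in neuron cells. The middle 50% of neuroblast cells ran from 18 to 65 UMIs, far wider than the 49 to 66 of progenitor cells. A limit of 37 UMIs, near the lowest 5% of progenitor cells, had 47.1% and 37.2% of the WT neuroblast cells and 38.8% and 43.9% of the Apcdd1+/- neuroblast cells below it, a mean of 41.8% ± 4.55. The same share was 4.78% ± 0.937 in progenitor cells and 76.5% ± 6.19 in neuron cells. Of 1159 thinned neuroblast cells, 491 lay below the limit and 103 within 5 UMIs of it. Most of the cells thus lay at or above the limit, as nearly all progenitor cells did, and they are called neuroblast cells here without the rest of the name.

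**Figure D2:**
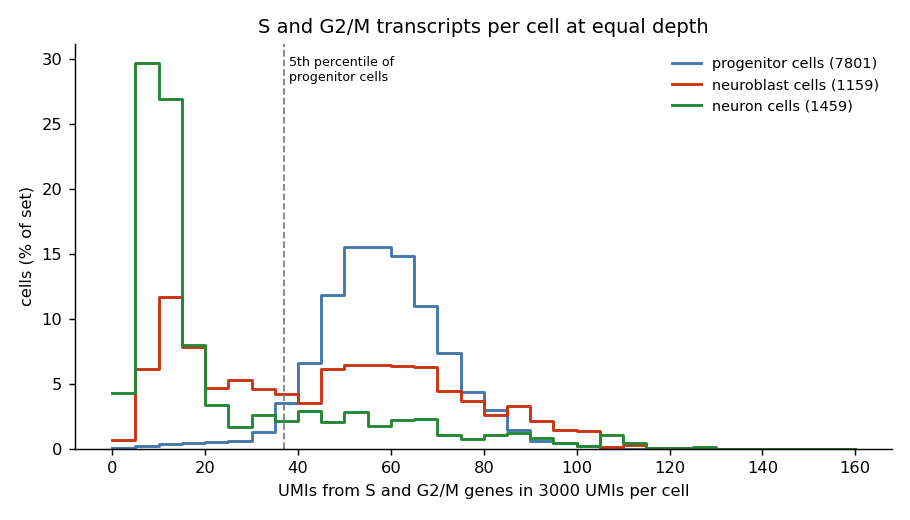
Share of cells by number of S and G2/M UMIs among 3000 thinned UMIs, for 7801 progenitor, 1159 neuroblast and 1459 neuron cells, with a dashed line at 37 UMIs. The median is 57 UMIs in progenitor cells and 12 in neuron cells, and neuroblast cells spread over both ranges.

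Against progenitor cells, neuroblast cells had far more of the transcription factors of early neurons and of Cdkn1c, and less of S-phase genes. Id3, Hes1 and Sfrp2 were lower, while genes of progenitor identity went both ways. Of 12181 genes tested, 2678 were higher (22.0%) and 2511 lower (20.6%), and these shares stand beside the lists that follow. The lists were chosen with earlier results of these data known, so their counts are a description and no test of the lists. Over all genes tested, the median log2 difference was 0.00.

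The 12 largest higher differences included 5 transcription factors of newly formed neurons. Nhlh2, a helix-loop-helix factor, had 95.5, 61.3, 68.9 and 88.4 CPM in neuroblast cells (library order as above) and 0.300, 0.623, 0.341 and 0.505 in progenitor cells, a log2 difference of 7.59 (SE 0.17, adjusted p = 2.6e-24 by edgeR). Insm1, a zinc finger factor of neurogenic progenitors, had 64.8, 75.8, 62.5 and 74.8 CPM against 0.600, 0.356, 0.652 and 0.673. Ebf2, a factor of early neuron differentiation, had 128 ± 14.4 CPM against 1.68 ± 0.530. No progenitor library came near a neuroblast library for these 3 genes, which were picked for large differences of the same sign in 4 libraries. That pick favours such a gap. Ebf3 and Onecut1, further factors of early neurons, differed by 5.77 (SE 0.14) and 5.97 (SE 0.14).

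Genes of other kinds among the 12 were the neuropeptide gene Cck (5.99), the splicing regulator Srrm4 (4.65), which sets neuronal exons, the kinase gene Plk3 (4.13), the phosphatase inhibitor Ppp1r14a (5.25), the transcription factor Tfap2b (5.67), and Rgs16 and Rgs8 (5.28 and 4.23), which shorten G protein signals. Srrm4 had 220, 223, 174 and 270 CPM against 9.20, 12.1, 6.58 and 9.31. Cck varied more between libraries, 26.5, 77.5, 47.4 and 75.7 CPM, against 0.550, 2.40, 0.435 and 0.785.

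On a list of 25 neurogenic transcription factors, 20 of 21 tested were higher and 0 lower, with a median of 3.62. Those of highest level were Sox11 and Sox4, which drive pan-neuronal genes, Rcor2 and Tcf4. Sox11 had 1448, 1467, 1212 and 1428 CPM against 611, 635, 519 and 524, a difference of 1.32 (SE 0.03). Sox4 differed by 1.35, Rcor2, a corepressor partner, by 1.42, and Tcf4, a partner of proneural factors, by 0.83. Of other proneural genes, Atoh1 was higher by 3.21 and Olig2 by 0.85. Of 32 genes of early neurons, 25 of 31 tested were higher and 0 lower, with a median of 0.80, and the most abundant of these were Tubb2b (0.43), Stmn1 (0.65), Map1b (0.55) and Dpysl3 (1.03), all of the neuronal cytoskeleton.

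Of 12 genes of cell cycle exit, 7 of 11 tested were higher and 0 lower. Cdkn1c had 1779, 1334, 1556 and 1858 CPM in neuroblast cells against 194, 193, 180 and 180 in progenitor cells, a difference of 3.17 (SE 0.05, adjusted p = 2.5e-28 by edgeR). Cdkn1a, another kinase inhibitor, differed by 1.98, and Btg1, a relative of Btg2, by 1.10. All 4 libraries were higher for each of these genes.

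Among genes of the cycle itself, all S-phase differences pointed one way, and those of G2/M were smaller. Of 43 S-phase genes, 40 were lower and 0 higher, with a median of −0.45. Mcm6, part of the replication helicase, had 161, 187, 197 and 153 CPM against 258, 260, 276 and 260, a difference of −0.56 (SE 0.05), and Nasp, a histone chaperone, differed by −0.13. Of 52 G2/M genes, 28 were lower and 3 higher, with a median of −0.15. The higher were G2e3 (0.46), Anp32e (0.20) and Cenpe (0.13), and among the lower were Smc4 (−0.33), Tubb4b (−0.27), Rangap1 (−0.11) and Hmgb2 (−0.09). The counts depended on which neuroblast cells entered: with the 416 cells that had 0 or 1 neuron gene, 16 S-phase genes were lower, and 2 G2/M genes were lower and 6 higher. Without the library as a block, 31 S-phase genes were lower, and 8 G2/M genes were lower and 1 higher.

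Of 9 cyclins and partners of G1, 3 were higher and 6 lower. Ccnd1, the D cyclin of neural progenitors, had 1357, 1134, 1038 and 1276 CPM against 958, 919, 878 and 899, a difference of 0.43 (SE 0.03). E2f1 (0.82) and Cdk4 (0.17) were also higher. Cdk6 (−1.44), Ccnd3 (−0.94), Ccne1 (−0.66) and Ccnd2 (−0.15) were among the lower.

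Notch pathway genes differed in both directions, with more of them higher. Of 25 genes, 3 were in the rule, and 13 of the 20 tested were higher and 5 lower, with a median of 0.55. Mfng, an enzyme that adds sugars to Notch and alters its response to ligands, had 243, 186, 257 and 235 CPM against 29.5, 22.3, 24.7 and 26.2, a difference of 3.22 (SE 0.06). Mib1, which lets Delta ligands signal, differed by 1.09. The receptor Notch1 had 125, 161, 133 and 145 CPM against 50.5, 69.1, 41.7 and 73.6, a difference of 1.35 (SE 0.07), and the receptor Notch3 differed by −0.84.

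The targets of Notch divided. Hes5 had 168, 239, 102 and 187 CPM against 103, 125, 86.7 and 130, a difference of 0.65 (SE 0.07) that was higher in all 4 libraries. Hes1 had 54.0, 46.0, 35.4 and 31.0 CPM against 115, 117, 77.8 and 75.4, a difference of −1.15 (SE 0.07), and Hey1 differed by −0.84. Hes1 was lower in all 4 libraries, with no overlap between the cell sets. The Notch regulator Dtx4 differed by −0.59.

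Among 8 repressors that hold progenitors back from differentiation, 5 were lower and 2 higher. Id3, which blocks proneural factors by pairing with their partners, had 226, 257, 205 and 137 CPM against 480, 542, 469 and 498, a difference of −1.22 (SE 0.07). Id4 differed by −0.71 and Rest, which silences neuronal genes, by −0.45. The higher were Hes5 and Id2 (0.26).

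Genes of progenitor identity did not move as a block. Of 20, 5 were higher, among them Vim (0.38) and Nes (0.20), both intermediate filaments of progenitors, and Dbi (0.12). The 8 lower included Hmga2 (−0.77), Ptn (−0.56), Sox3 (−0.23) and Mdk (−0.20). The summed level of the 20 genes was 5741 ± 160 CPM in neuroblast cells, 5851 ± 162 in progenitor cells and 3404 ± 375 in neuron cells.

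Of 18 Wnt pathway targets and inhibitors, 3 of 15 tested were higher and 6 lower. The higher were Ccnd1, Apcdd1 (0.56) and Nkd1 (1.04), an inhibitor that Wnt signalling turns on. Apcdd1 had 140, 90.7, 158 and 82.0 CPM in neuroblast cells against 90.4, 80.5, 95.0 and 64.8 in progenitor cells, higher in all 4 libraries. The lower included Sfrp2, a secreted Wnt modulator, with 32.9, 46.0, 34.6 and 49.3 CPM against 111, 122, 116 and 119 (−1.52), its relative Sfrp1 (−0.81), the receptor Fzd10 (−0.95) and Tcf7l1 (−0.65).

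Beside the genes above, the 12 largest lower differences held Cntnap2 (−1.72), Cdca7l (−1.32), Ajuba (−1.28), Nr2e1 (−1.24), a progenitor factor of the forebrain, Wfdc2 (−1.22), Sparc (−1.21), Ccn1 (−1.18) and the imprinted gene Mest (−1.17). The globin gene Hba-a2 had the lowest value of these 12, −4.50, but 3 progenitor cells held 1842 of its 1910 UMIs in WT replicate 1. Against progenitor cells with 0 of the 9 genes, the difference of Hba-a2 was 0.11. Markers of head regions also differed: 4 of 5 retina markers tested were lower (median −2.10) and 3 of 4 hindbrain markers higher (median 1.30). Of 7 telencephalon markers 3 were higher and 3 lower, of 9 diencephalon markers 2 and 1, and of 8 midbrain markers 2 and 0. The part of region in the differences from progenitors was not tested.

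Heads also hold cranial ganglia, whose neuroblasts use Neurog1 too. Of 12 sensory ganglion markers, 11 were measured, and they summed to 94.9 to 210 CPM in neuroblast cells, 15.9 to 26.3 in progenitor cells and 1092 to 1888 in neuron cells. None was at 0 in the neuroblast cells. Of 6 tested against progenitors, 5 were higher, among them Isl1 (5.82), Eya2 (3.01) and Pou4f1 (2.19). Isl1 and Pou4f1 are also known from neurons of the brain. Apcdd1+/- replicate 1 had the lowest sum, and the part of ganglion cells in the differences was not tested. Of other cell types, 8 mesenchyme markers summed to 15.1 to 22.8 CPM in neuroblast cells (12.1 to 13.6 in progenitor cells) with Col3a1 at 0 by rule in both sets and Col1a2 also at 0 by rule in progenitor cells, so these sums are not alike, 7 macrophage markers to 8.37 to 21.7 (18.3 to 66.6), and 6 endothelium markers to 5.11 to 34.9 (3.81 to 11.6). The 9 erythroid markers summed to 33.9 to 103 CPM in neuroblast cells and 41.0 to 2083 in progenitor cells.

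**Figure D3:**
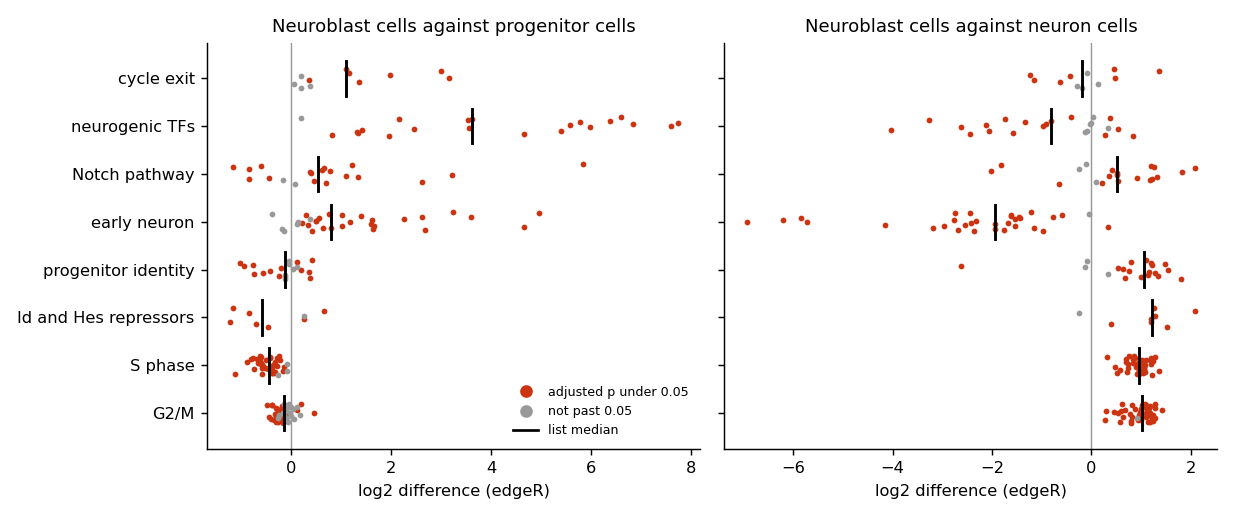
Log2 difference of each tested gene by list, neuroblast minus progenitor cells in 1 panel and neuroblast minus neuron cells in the other, with red points for an adjusted p under 0.05 and a black bar at the list's median. S-phase genes lie below 0 against progenitors (median −0.45) and above 0 against neurons (median 0.96), and early neuron genes do the opposite (0.80 and −1.94).

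Against neuron cells, most genes of the cycle lists were higher in neuroblast cells and most early neuron genes lower. Of 11535 genes tested, 2878 were higher (25.0%) and 3024 lower (26.2%), with a median of 0.00. All 43 S-phase genes were higher, with a median of 0.96, and 51 of 52 G2/M genes, with a median of 1.02. With the 317 neuron cells that had at most 1 of the 9 neuroblast genes as the reference, 8 S-phase genes and 38 of 51 G2/M genes were higher. Of the 9 G1 genes, 7 were higher and 0 lower, with Ccnd1 at 1.10.

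The largest higher difference was that of Msx3, a factor of the dorsal neural tube, at 57.4, 61.7, 39.9 and 45.1 CPM against 9.48, 12.7, 9.10 and 8.55 (log2 2.43, SE 0.13). Cdc25b, a phosphatase that starts mitosis and is known for its part in neurogenic divisions, had 124, 146, 128 and 142 CPM against 27.4, 28.9, 33.9 and 29.4 (2.23, SE 0.09). Hes5 differed by 2.09, at 174 ± 56.5 against 41.6 ± 4.70 CPM. The neuroblast libraries lay above all neuron libraries for each of these genes, a gap that picking the largest differences favours. Further genes were Rfx4 (1.89), the glycine receptor gene Glra1 (1.86), Zfp36l1 (1.81), which promotes decay of mRNAs, Ildr2 (1.72), the glucose transporter Slc2a1 (1.69), Rgs16 (1.64), Lix1 (1.61) and Zc3h12c (1.59).

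The 12 genes lowest against neurons included those of neurofilaments. Nefl, a neurofilament subunit, had 11.8 ± 1.34 CPM against 1533 ± 288 (−6.94, SE 0.08). Nefm, its partner, had 51.1, 65.1, 38.2 and 99.5 CPM against 3768, 3579, 1929 and 4439 (−5.72). Sncg, a synuclein, differed by −9.13, Islr2 by −6.67, the axon guidance receptor Robo3 by −6.27, the neuropeptide Sst by −6.21, Mapt, the microtubule protein tau, by −6.20, and the glutamate transporter Slc17a6 by −5.40. Bhlhe23 (−5.59), Svop (−4.80), Asic4 (−4.70) and Chgb (−4.50) completed the 12. On the list of early neuron genes, 30 of 32 were lower and 1, Srrm4 (0.33), was higher. All 11 sensory ganglion markers tested were lower.

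Genes of neurogenesis and of cycle exit divided in this comparison. Nhlh2 had 78.5 ± 16.1 CPM in neuroblast cells and 360 ± 21.3 in neuron cells (−2.12), and Onecut2 (−2.63), Ebf1 (−3.27) and Ebf2 (−0.81) were also lower. Of 23 neurogenic factors tested, 13 were lower and 4 higher, Zbtb18 (0.84), Rcor2 (0.53), Cbfa2t2 (0.37) and Tcf4 (0.27). Insm1 was at 69.5 ± 6.80 against 75.3 ± 17.9 CPM, a difference of −0.02 (SE 0.09). Against the 317 neuron cells with few neuroblast genes, the list turned to 9 higher and 4 lower, and Ebf2 to 0.77.

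Of 11 genes of cycle exit tested, 3 were higher and 4 lower. Btg2, Cdkn1c (0.48, at 1632 ± 236 against 1229 ± 214 CPM) and Btg1 (0.45) were higher. The kinase inhibitors Cdkn1a (−1.24), Cdkn2d (−1.16) and Cdkn1b (−0.44) and the stress gene Gadd45a (−0.63) were lower. Against the 317 neuron cells, Cdkn1a, Cdkn1b and Gadd45a were at 0.85, 0.04 and 0.61, so their direction rests on the neuron cells chosen.

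Of 20 Notch pathway genes tested against neurons, 14 were higher and 3 lower. Notch1 differed by 1.32, Mfng by 0.52 and Mib1 by 0.35, and the lower were Jag2 (−2.03), a ligand, Dner (−1.82), a Delta-related protein of neurons, and Rfng (−0.64). Of the 8 repressors, 7 were higher, and of 20 progenitor genes 16 were higher and 1, Lin28a (−2.63), lower. Of 14 Wnt genes tested, 10 were higher and 2 lower.

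The spread of cycle UMIs among neuroblast cells went along with other genes. In each library the thinned cells were divided into 4 bins of equal size by their S and G2/M UMIs, and levels were read from all their UMIs. The genes named here were picked after their values were seen, and no test was made. Cdkn1c had 2917, 2068, 2173 and 3266 CPM in the bin with the fewest cycle UMIs and 1600, 1001, 1286 and 1346 in the bin with the most. Nhlh2 had 284, 177, 172 and 235 CPM against 58.2, 27.9, 60.8 and 78.4, a ratio of 3.85. Ebf2 (289 ± 35.0 against 98.8 ± 30.3 CPM), Srrm4 (431 ± 93.2 against 164 ± 21.3), Btg2 (525 ± 106 against 276 ± 67.7) and Elavl4 (189 ± 36.4 against 53.6 ± 7.69), an RNA-binding protein of neurons, were likewise higher in 4 of 4 libraries.

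Other genes went the other way or differed little between the lowest and the highest bin. Id3 had 68.9, 129, 95.4 and 89.1 CPM in the lowest bin and 295, 355, 222 and 137 in the highest, and Sox2 had 294 ± 60.4 against 400 ± 76.2, both lower in 4 of 4 libraries. Hes1 was at 25.8 ± 8.78 against 37.4 ± 8.87 CPM, lower in 3 of 4. Insm1 was at 88.4 ± 9.29 against 92.4 ± 28.8 CPM, within the spread of the libraries. It was lower between these ends, at 64.8 ± 31.4 CPM in bin 2 and 40.2 ± 4.70 in bin 3. Of the rule genes, Gadd45g went the way of Cdkn1c, with 1664 ± 298 CPM in the lowest and 1005 ± 187 in the highest bin, higher in 4 of 4 libraries. Dll1 had 281 ± 47.7 against 225 ± 53.5 CPM, higher in 3 of 4. Depth moved with the bins: the lowest bin had median counts of 8312, 10391, 5570.5 and 5775.5 UMIs and the highest 11906, 17612.5, 8520 and 7872, and the part of depth in these levels was not tested.

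**Figure D4:**
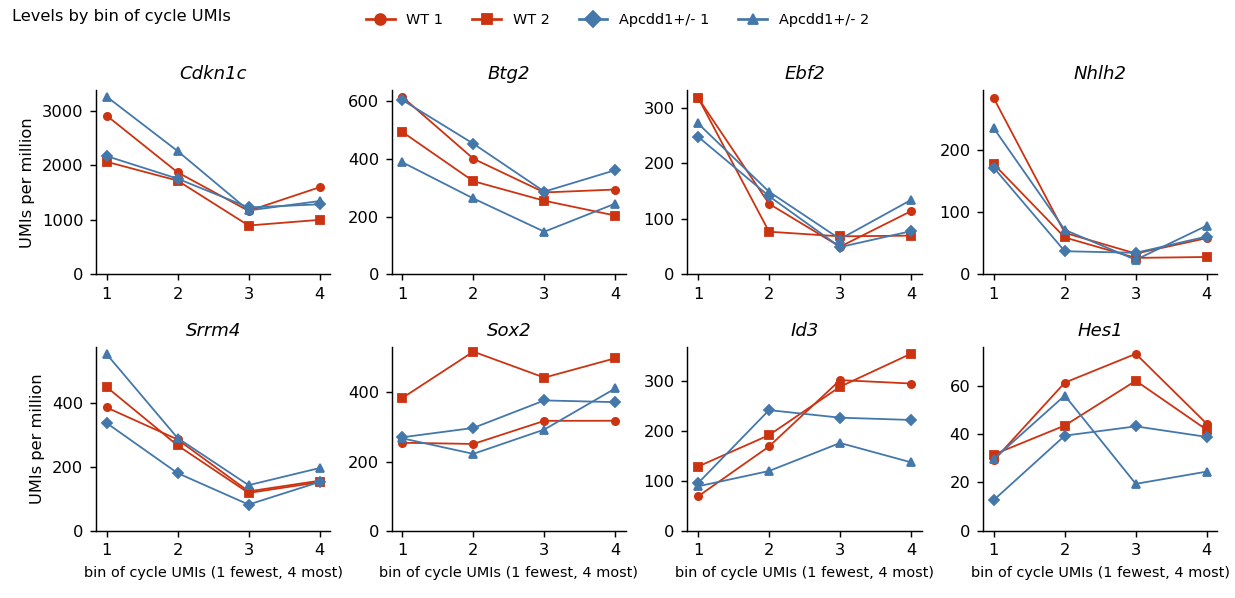
Level in CPM of 8 genes in neuroblast cells across 4 bins of their S and G2/M UMIs (1 fewest, 4 most), with 1 line per library, WT in red and Apcdd1+/- in blue. Cdkn1c, Btg2, Ebf2, Nhlh2 and Srrm4 are higher in bin 1 than in bin 4 in every library, and Sox2 and Id3 are lower.

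The number of neuron genes detected gave a second order within the cells, described without a test since the neuron genes are part of the rule. From cells with 0 to cells with 3 of them, the summed S-phase level was 6821, 6605, 5404 and 5037 CPM, lower at 3 than at 0 genes in 4 of 4 libraries. The G2/M sum was 10728, 12110, 10388 and 9200 CPM, lower in 3 of 4. Cdkn1c had 716, 958, 1823 and 2299 CPM along the same order, and Nhlh2 had 4.04, 18.5, 76.1 and 165. The 8 repressors together went from 889 ± 197 to 539 ± 82.0 CPM, and Hes5 from 234 ± 87.5 to 136 ± 25.1, each in 4 of 4 libraries. The 20 genes of progenitor identity stood at 5709 ± 337 and 5661 ± 312 CPM.

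Detecting a neuron gene depends on a cell's depth, so the order was read again after thinning. Thinning also chose the cells anew, since the rule was applied to the thinned counts, and left 108 cells with 0 and 158 with 3 neuron genes, so these values differ from those above in both depth and choice of cells. The S-phase sum then differed by −2236 ± 958 CPM between 3 and 0 genes (−1784 ± 828 without thinning), and the G2/M sum by −2825 ± 3236 (−1528 ± 1389 without), lower in 3 of 4 libraries and, after thinning, by less than its spread. Cdkn1c was again higher at 3 genes in 4 of 4 libraries, at 1523 ± 122 and 2492 ± 729 CPM for 0 and 3 genes.

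Neurog1 and Neurog2 divided the cells into 4 groups. Neurog1 alone was detected in 365 cells (30.9%), Neurog2 alone in 152 (12.9%), both in 305 (25.8%) and neither in 360 (30.5%), with median depths of 8228, 9678, 9708 and 9060.5 UMIs. Since detection is partial, a cell without a UMI may still express the gene. The genes that follow were picked after their values were seen and are described only.

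Atoh1, the proneural gene of the rhombic lip, had 40.2, 55.8, 7.80 and 28.4 CPM in cells with neither neurogenin and no UMI in the 822 cells of the other groups, which allows a share of up to 0.365% of cells with a UMI. Dlx2, of inhibitory forebrain cells, had 21.2 ± 5.87 CPM there and at most 0.218 elsewhere, and Nkx2-2, of the ventral neural tube, 28.2 ± 3.69 and at most 2.86. The neither group was thus highest for these genes in every library. Tal2, of midbrain inhibitory neurons, was at 94.7 ± 27.0 CPM there and at 53.3 ± 16.8 in cells with Neurog1 alone.

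Cells with both neurogenins had the most Eomes, a factor of intermediate neuron precursors in the cortex, with 183, 63.0, 104 and 98.2 CPM against means of at most 26.2 elsewhere. Pax6, which acts upstream of Neurog2 in the cortex, was at 199 ± 77.1 CPM in them, with the next group at 147 ± 91.9, and was highest there in 4 of 4 libraries. Emx2, of the dorsal forebrain, was at 60.8 ± 27.5 CPM, highest in 2 of 4 libraries. Cells with Neurog1 alone had the most Irx3 (139 ± 34.8 CPM), Dll4 (12.5 ± 2.75) and the sensory factor Pou4f1 (19.6 ± 8.67) in 4 of 4 libraries. Isl1 was at 60.2 ± 41.2 CPM with Neurog1 alone and at 67.2 ± 12.1 with neither, and at 5.77 and 7.04 in the other groups. In Apcdd1+/- replicate 1, Isl1 with Neurog1 alone was at 6.92 CPM, against 62.7 to 107 in the other libraries.

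**Figure D5:**
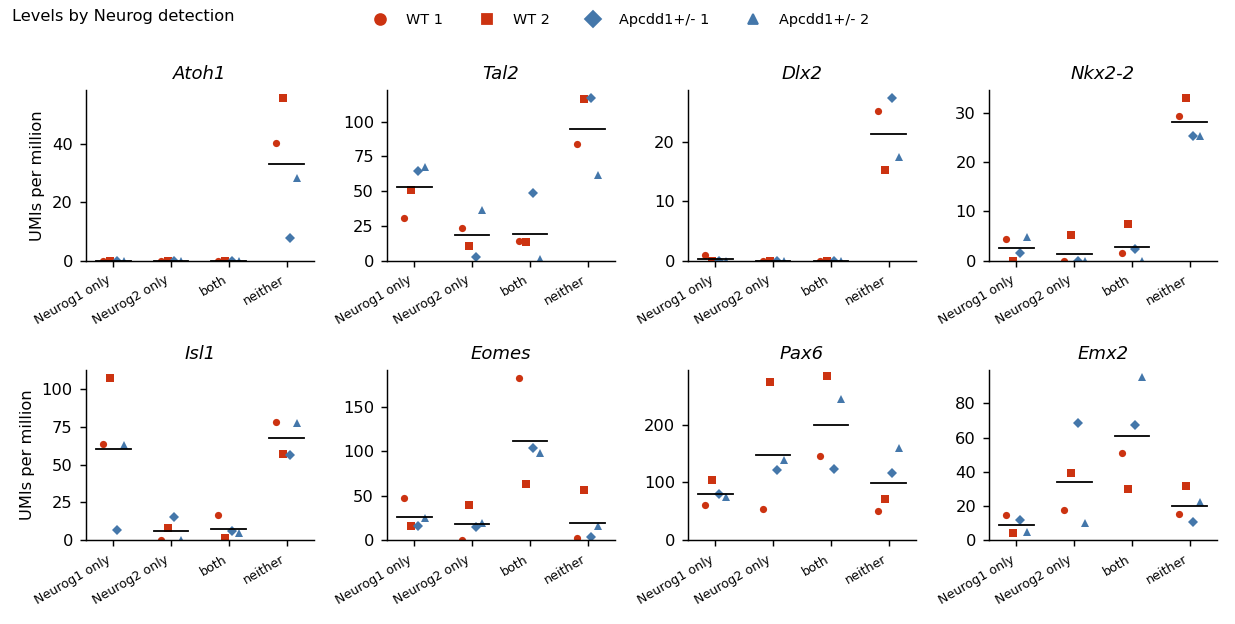
Level in CPM of 8 genes in neuroblast cells with Neurog1 alone, Neurog2 alone, both or neither detected, with 1 point per library and a bar at the mean. Atoh1, Dlx2 and Nkx2-2 are highest where neither was detected, and Eomes and Pax6 where both were.

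Between the genotypes, no gene of the neuroblast cells passed the test. Of 10888 genes, 0 had an adjusted p under 0.05 by edgeR (0.00%), 284 had an unadjusted p under 0.05, and DESeq2 also called 0. The log2 differences, Apcdd1+/- minus WT, had a median of 0.01 over all genes. Both Apcdd1+/- libraries lay above both WT libraries for 1257 genes and below them for 1765, and the groups overlapped for the other 7866 of the 10888. Such a separation of 2 libraries from 2 reaches an exact permutation p of 0.333 at best. With a single library left out, the count was 37 without Apcdd1+/- replicate 2, 14 without WT replicate 1, 10 without Apcdd1+/- replicate 1 and 0 without WT replicate 2. Each of these fits leaves the Y-linked genes unequal between the genotypes and assumes that the remaining library varies like the group of 2.

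The 9 rule genes had small positive differences, from 0.03 to 0.29, given as a description since they chose the cells. Hes6 differed by 0.21, Dll1 by 0.26, Dll3 by 0.23 and Gadd45g by 0.12, and outside the rule Btg2 by −0.02 and Cdkn1c by 0.16. Cdkn1c in WT, at 1779 and 1334 CPM, spanned more than the difference between the groups, with 1556 and 1858 in Apcdd1+/-. Of 24 Notch pathway genes measured here, 3 of them in the rule, 13 were positive and 11 negative, with a median of 0.01 and Mfng at 0.22. Of 14 Wnt genes, 8 were positive and 6 negative, with a median of 0.01, Sfrp1 at −0.06 and Tcf7l2, a transcription factor of the pathway, at 0.23.

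The 8 repressors of differentiation were all negative, with a median of −0.32 and 4 at an unadjusted p under 0.05, and 0 passed the adjusted test. Over all 10888 genes 48.6% were negative and 2.61% had an unadjusted p under 0.05. Markers of sensory ganglia went the same way: 8 of 9 tested were negative, with a median of −0.57 and 3 at an unadjusted p under 0.05, and 0 passed the adjusted test. Their sum was 210 and 181 CPM in WT and 94.9 and 186 in Apcdd1+/-, so Apcdd1+/- replicate 1 alone stood apart, and the part of ganglion cells in the genotype differences was not tested. The 11 stress and immediate early genes tested were also all negative, with a median of −0.18, among them Jun (−0.49) and Egr1 (−0.92). Egr1 had 162 and 104 CPM in WT and 89.3 and 47.6 in Apcdd1+/-. Its groups did not overlap, but the lowest WT library and the highest Apcdd1+/- library were closer to each other than the libraries of either group. Hsp90aa1 and Hspa8 stood at −0.07 and −0.05. Tissue was stored before dissociation per the labels, and the part of handling in these genes was not tested.

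Neuroblast cells made up 5.88% of kept cells in WT replicate 1 (368 of 6258, 95% Clopper-Pearson interval 5.31 to 6.49) and 4.94% in WT replicate 2 (146 of 2956, 4.19 to 5.78). They made up 4.19% in Apcdd1+/- replicate 1 (398 of 9501, 3.80 to 4.61) and 4.87% in Apcdd1+/- replicate 2 (270 of 5544, 4.32 to 5.47). The intervals cover counting error only. Both Apcdd1+/- libraries lay below both WT libraries, WT replicate 2 and Apcdd1+/- replicate 2 by less than their intervals. The Apcdd1+/- mean was −0.88 points from the WT mean. An exact permutation test, two-sided, gave p = 0.333, below which 4 libraries cannot go. The rule detects more genes in deeper cells, and with every cell thinned to 3000 UMIs before the rule the difference was −0.34 points (exact permutation p = 0.667), and Apcdd1+/- replicate 2 at 3.09% then lay above WT replicate 2 at 3.00%. Without WT replicate 1 the difference was −0.41 points, without Apcdd1+/- replicate 1 it was −0.54 and without WT replicate 2 it was −1.35. Among neuroblast, progenitor and neuron cells together, the shares were 13.8% and 12.7% in WT and 9.06% and 10.6% in Apcdd1+/-, a difference of −3.42 points (exact permutation p = 0.333). Progenitor cells, the main part of this denominator, were 29.0% and 25.6% of kept cells in WT and 37.4% and 34.4% in Apcdd1+/-.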

How the data were processed

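The authors deposited raw UMI counts per gene and cell barcode, and per the file headers PISA 0.12 wrote the matrices. The labels' protocols name the DNBelab C series software for parsing barcodes. The submitters' processing notes name mm10 and Scanpy 1.9.1. Nothing in these sources states an aligner, an annotation or a filter on cells before deposit. The neuroblast cells and the gene lists were chosen with earlier results of these data known. The matrices listed 20719 genes, 18081 in every library, and a missing gene was taken as 0. No doublet caller was run: 6 neuroblast cells exceeded 3 times the median UMI count of their library, and a fit without them was made. Counts were summed per library and cell set and tested with edgeR 4.0.16 in R 4.3.3 (TMM scaling, its filter on low counts, quasi-likelihood test, Benjamini-Hochberg over all genes tested, threshold 0.05), with the library as a block between cell sets and a genotype term alone within the neuroblast cells. DESeq2 1.42.0 was an alternative. Named genes were the rule genes, naming markers, the 12 largest differences each way at 50 CPM or more with the same sign in 4 libraries, and the 4 most abundant called members of each list in each direction; genes named beyond this are said to be chosen after their values were seen, or carry the point of a paragraph. Some genes within this rule are not reported here. The models were tested on simulated data.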

Additional observations from a re-analysis of the deposited data

Results flagged for a closer look

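The genotype difference of 1 gene, Cartpt, was not the same in neuroblast cells as in neuron cells. Cartpt encodes a neuropeptide precursor. It had 3.93 and 2.55 CPM in the WT neuroblast cells and 14.5 and 13.6 in those of the libraries labelled Apcdd1+/-, from 16, 6, 52 and 32 UMIs in 6, 4, 20 and 12 cells. In neuron cells it had 95.2 and 58.5 CPM in WT and 45.0 and 55.3 in Apcdd1+/-. The Apcdd1+/- minus WT difference was larger in neuroblast than in neuron cells by 2.77 on the log2 scale, and of 11535 genes this was the only 1 whose interaction term passed the test (adjusted p = 0.0034 by edgeR; 562 genes had an unadjusted p under 0.05). Within the neuroblast cells alone the difference was 2.08 (adjusted p = 0.55 by edgeR). For the pair of neuroblast and progenitor cells, edgeR found 0 of 12181 genes past the same interaction test, and 513 of them had an unadjusted p under 0.05. DESeq2 was not used for interactions. The Cartpt UMIs of neuroblast cells lie in few cells.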

How the results depend on the processing

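Cells were chosen by detection, which depends on depth, and the 4 libraries differed in depth, so shares and levels near the limits of the rule are the least firm. The number of genes between genotypes (0) was 4 with no filter on low counts, 1 with the replicate block and 0 to 37 with a library left out. Same-numbered libraries showed little shared deviation, with a correlation of 0.042, which cannot settle whether the replicate numbers pair the samples. The 1 gene called with the replicate block was Egr1 (−0.94). Against progenitors the count of 5189 was 3107 with no library block and 1651 with neuroblast cells of 0 or 1 neuron genes; it was 3736 by DESeq2. Against neurons the count of 5902 was 3514 with cells thinned to 3000 UMIs and 1898 with the 317 neuron cells of at most 1 of the 9 genes, a reference added after seeing the data; it was 4292 by DESeq2. The cause of these moves was not tested. The fits with neuroblast cells of 0 or 1 neuron genes and with the 317 neuron cells hold fewer cells than the main fits.

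Single genes turned in direction as follows. Between genotypes, over the fits that leave out 1 library each, the log2 difference ranged from −0.50 to 0.50 for Apcdd1, −0.59 to 0.21 for Btg1, −0.45 to 0.29 for Btg2, −0.24 to 0.10 for Ccnd1, −0.072 to 0.43 for Cdkn1c, −0.0054 to 0.52 for Dll3, −0.092 to 0.38 for Gadd45g, −0.058 to 0.55 for Hes6, −0.21 to 0.036 for Hsp90aa1, −0.32 to 0.17 for Hspa8 and −0.30 to 0.21 for Sfrp1. Ccnd1 was 0.073 with thinned cells, and with at least 5 of the 9 genes Apcdd1 was −0.023 and Tcf7l2 −0.074. Against progenitors, with neuroblast cells of 0 or 1 neuron genes, Ccnd1 was −0.043, Hmgb2 0.039, Rangap1 0.041, Rrm1 0.023 and Sox3 0.062, and Hba-a2 was 0.11 with progenitor cells of 0 genes. Against neurons, with the 317 neuron cells, Cdkn1a was 0.85, Cdkn1b 0.037, Ebf2 0.77, Eya2 1.40, Gadd45a 0.61, Id4 −0.79, Rangap1 −0.039, Sfrp1 −0.45 and Tcf7l2 0.49, and Atoh1 was −1.99 with at least 5 of the 9 genes. The mean share of neuroblast cells among kept cells was lower in Apcdd1+/- under each alternative, from −0.96 to −0.34 points, and from −1.35 to −0.41 with a library left out; it was −3.42 points among neural cells, another denominator. With thinned cells the libraries of the genotypes overlapped. Over the named genes and alternatives, 36 values against progenitors and 24 against neurons lost their call with the same sign.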
